A study of Mus musculus with 2 samples.

Results

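The 10 genes described here encode the antigen presentation machinery of the major histocompatibility complex (MHC), 6 of class II (Cd74, H2-Aa, H2-Ab1, H2-Eb1, H2-DMa and Ciita) and 4 of class I (H2-K1, H2-D1, B2m and Tap1). They were chosen by symbol, and all 10 were found among the 27998 genes of both libraries. RNA of single cells was counted as unique molecular identifiers (UMIs, one per captured transcript) in bone marrow cells of 3-month-old mice, sorted as Lin- Sca-1+ c-Kit+ (LSK). LSK cells comprise the haematopoietic stem cells and their early progenitors. There was 1 library of Trmt6 wild-type (WT) cells, with the genotype Trmt6fl/fl in the labels, and 1 of conditional knockout (cKO) cells, with the genotype Trmt6fl/fl, MX1-cre. The product of Trmt6 is part of the writer of m1A on tRNA. The study's text differs from the labels in placing the Mx1-Cre recombinase in both genotypes. Its methods describe a cross that gave Trmt6fl/+ as well as Trmt6fl/fl animals with Mx1-Cre, and its outline of the single-cell experiment gives Trmt6+/+ Mx1-Cre and injections of pIpC, an inducer of interferon, to delete the floxed alleles. Mx1-Cre acts in every interferon-responsive cell and not in blood cells alone. How many mice went into each library is not given in the sources used here. Genotype and library, and the recombinase if the labels are right, cannot be told apart, and no difference below has a replicate check or a test. All intervals are 95% intervals and cover counting error only.

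Class II molecules are pairs of an alpha and a beta chain that present peptides from the endosome to CD4 T cells. Their chains assemble on the invariant chain, the product of Cd74, and H2-DM exchanges its remnant for peptide, while the transactivator CIITA switches the genes on. This programme is known from dendritic cells, macrophages and B cells. Class I molecules, by contrast, are made by nearly all nucleated cells. A heavy chain such as H2-K or H2-D pairs with beta-2-microglobulin (B2m) and takes up peptides that the TAP transporter, with its subunit Tap1, pumps into the endoplasmic reticulum. Both gene classes respond to interferon.

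Among the members, 7 lie on chromosome 17 in a stretch of 1271 kb (chr17:33996017-35267499, GRCm38). RefSeq sequence (GRCm38.p6) upstream of the transcription start was matched for 7 of the 10 members. The 150 bases before the start are shown for the 2 class II and 3 class I genes that hold the letters ATTGG. H2-DMa and Tap1 lack them and are not shown. Capitals mark matches on either strand to ATTGG (core letters of the NF-Y motif), TGACG (a cyclic AMP response element core) and GGGATTCCC, an NF-kB type motif; in H2-Aa, TGACG matches overlap on both strands and are capitalised together. The windows are chr17:34287824-34287973 (minus strand) for H2-Aa, chr17:34305717-34305866 (plus strand) for H2-Eb1, chr17:34000348-34000497 (minus strand) for H2-K1, chr17:35262944-35263093 (plus strand) for H2-D1 and chr2:122147537-122147686 (plus strand) for B2m.
H2-Aa: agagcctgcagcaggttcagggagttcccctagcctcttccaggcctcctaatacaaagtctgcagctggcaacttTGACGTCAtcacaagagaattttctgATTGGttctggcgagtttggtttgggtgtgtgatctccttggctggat
H2-Eb1: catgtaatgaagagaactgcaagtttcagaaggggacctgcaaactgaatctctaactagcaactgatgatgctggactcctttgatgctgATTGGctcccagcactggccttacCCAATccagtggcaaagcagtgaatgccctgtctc
H2-K1: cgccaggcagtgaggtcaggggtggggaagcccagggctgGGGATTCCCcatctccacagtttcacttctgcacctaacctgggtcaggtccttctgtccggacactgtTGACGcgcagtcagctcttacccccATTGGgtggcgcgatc
H2-D1: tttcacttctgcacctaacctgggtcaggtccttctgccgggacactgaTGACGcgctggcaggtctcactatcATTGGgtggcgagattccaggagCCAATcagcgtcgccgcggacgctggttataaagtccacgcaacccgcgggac
B2m: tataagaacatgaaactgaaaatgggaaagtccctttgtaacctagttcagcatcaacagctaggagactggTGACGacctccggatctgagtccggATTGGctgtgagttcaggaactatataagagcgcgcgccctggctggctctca

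ATTGG was present in 5 of the 7 member promoters, and in 24.5% of all 32851 promoter windows of this length. It began 48 bases before the start in H2-Aa, 59 and 35 bases in H2-Eb1, 16 bases in H2-K1, 76 and 53 bases in H2-D1 and 53 bases in B2m. TGACG was present in 5 of the 7, against 13.3% of all windows, and both motifs were present in 4 of the 7 (H2-Aa, H2-K1, H2-D1 and B2m), against 3.65%. GGGATTCCC was found in H2-K1 alone, 110 bases before the start, and in 0.14% of all windows. The window of Tap1 held TGACG only, and that of H2-DMa held none of these letters. H2-K1 and H2-D1 shared a run of 37 bases, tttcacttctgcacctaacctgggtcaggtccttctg, whereas the next longest run among the 21 pairs of members was 10 bases. The run begins with the first base of the H2-D1 window, so it may be cut there. In H2-K1, GGGATTCCC lies before this run, in a stretch that the H2-D1 window does not reach. Whether H2-D1 holds it there was not tested. These matches describe the letters only. H2-K1, H2-D1 and the H2-Q genes are also near copies of each other in their transcripts, so counts could be split between them, and their separate levels are uncertain. On the other strand, 4 members overlap a protein-coding gene, namely H2-DMa (Brd2), Ciita (Dexi), B2m (Patl2) and Tap1 (Psmb9), and whether counting used the strand is not stated in the sources used here.

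The cKO library was the deeper one. After filtering, 8150 WT cells with a median of 4238 UMIs and 8482 cKO cells with a median of 10147 UMIs were kept, and 24 barcode sequences occurred in both libraries. Levels are given as CPM, a gene's UMIs over all kept cells per 1000000 UMIs of the same cells, and shares of cells were taken after each cell was thinned to 2000 UMIs, which 7958 WT and 8377 cKO cells allowed. Transcripts of the sort markers were present in both libraries, with Kit at 62.2 and 21.1 CPM (WT first) and Ly6a, which encodes Sca-1, at 34.7 and 142 CPM. Trmt6 itself was at 63.7 and 50.3 CPM, which does not check the deletion, since these libraries tag the 3′ end of a transcript whatever exons it lacks. The libraries also differed in their cells: a marker gate for granulocyte-monocyte progenitors (GMPs; gates are defined below) took 2829 WT and 239 cKO cells, and one for neutrophils took 104 WT cells, against 0 in cKO (a count of 0 allows up to 0.0358%).

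Over all LSK cells, each class II member had less RNA than H2-K1, H2-D1 or B2m of class I. The genes for the chains and H2-DM belong to the cluster on chromosome 17, and of the others Cd74 lies on chromosome 18 and Ciita on chromosome 16. Cd74 had 3263 UMIs in WT and 10593 in cKO, or 76.8 CPM (74.2 to 79.5) and 120 CPM (118 to 123), a log2 ratio of cKO over WT of 0.65 (0.59 to 0.70). H2-Aa, the alpha chain of the I-A molecule, was at 26.1 and 28.3 CPM with a log2 ratio of 0.11 (0.01 to 0.22). Its partner H2-Ab1 was at 105 and 95.8 CPM with a log2 ratio of -0.13 (-0.18 to -0.08). H2-Eb1, the beta chain of I-E, was the least abundant chain, at 10.4 and 12.4 CPM, and its log2 ratio was 0.25 (0.09 to 0.41). The chains and Cd74 thus stayed within a log2 ratio of 1, and the direction was not shared among them. With the marker gates weighted alike in both libraries, the ratios of Cd74, H2-Aa and H2-Eb1 turned to -0.017, -0.49 and -0.35. That of H2-Ab1 moved to -0.32, so all of them were then below 0.

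H2-DMa, the alpha chain of the peptide exchange factor H2-DM, behaved apart from the other class II genes. It was the most abundant of them in both libraries, with 14170 UMIs (334 CPM) in WT and 12985 UMIs (147 CPM) in cKO. Its log2 ratio was -1.18 (-1.21 to -1.14), the lowest among the members. Brd2, which overlaps its annotated 5′ end on the other strand, had 89.9 and 73.4 CPM, a log2 ratio of -0.29. Ciita, the transactivator, was near the limit of detection, with 31 UMIs in WT and 57 UMIs in cKO, or 0.73 and 0.647 CPM. No difference in Ciita was detectable at this depth (log2 ratio -0.18, -0.83 to 0.51).

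Class I RNA was more abundant: H2-K1, H2-D1 and B2m, which lies on chromosome 2, each exceeded every class II member in both libraries. B2m had 162669 UMIs in WT and 305360 UMIs in cKO, or 3831 CPM (3812 to 3850) and 3467 CPM (3455 to 3479), with a log2 ratio of -0.14. H2-D1 was at 1693 and 1712 CPM, with a log2 ratio of 0.02 (0.00 to 0.03). H2-K1, the other classical heavy chain, was at 654 and 718 CPM, with a log2 ratio of 0.13 (0.11 to 0.16). Tap1 was at 63.4 and 55.0 CPM, with a log2 ratio of -0.21 (-0.28 to -0.14). The 4 class I members therefore lay within 0.21 log2 units of equality in this pair of libraries. With the gates weighted alike, the log2 ratios were -0.27 for B2m, -0.18 for Tap1, -0.015 for H2-D1 and 0.057 for H2-K1.

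**Figure D1:**
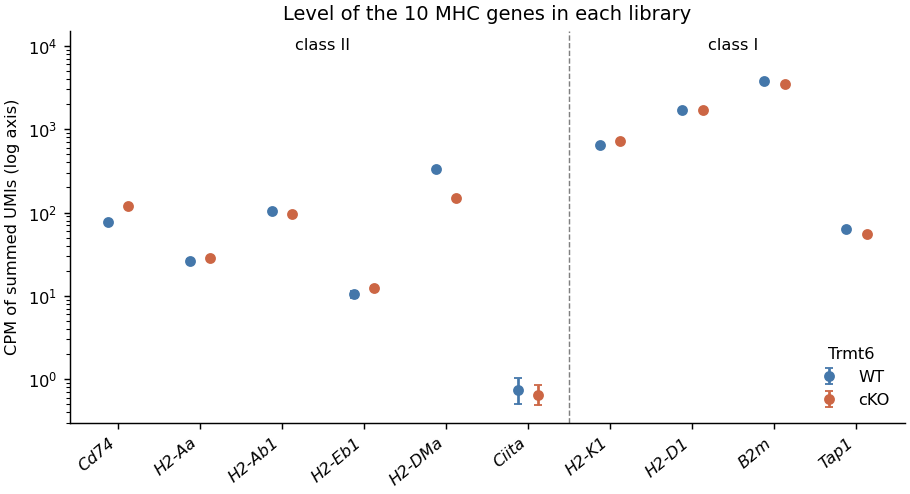
Level of each of the 10 genes in the WT and the cKO library, as CPM on a log axis, with exact Poisson 95% intervals. H2-DMa is the 1 gene whose points lie more than 2-fold apart (334 and 147 CPM), while the class I heavy chains and B2m nearly coincide between libraries.

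Of the 9 members that reached 5 CPM in at least 1 library, 1 (H2-DMa) was past a log2 ratio of 1 in either direction, as were 8.09% of the 9127 genes at this level. The median log2 ratio was 0.11 over 5 class II members, -0.06 over the 4 class I members and -0.06 over all 9127 genes. Higher in cKO were 5 of the 9, against 43.3% of all genes. With the gates weighted alike, Cd74, H2-Aa, H2-Eb1 and H2-D1 (-0.015) fell below 0, while H2-K1 stayed above it (0.057). The interval of the log2 ratio excluded 0 for all 9 members and for 79% of all genes, and these intervals hold neither the spread between mice nor that between cells. Summed over the class, the class II members were at 553 and 405 CPM (log2 ratio -0.45, -0.47 to -0.43), a sum that H2-DMa dominates. The 4 core class II genes without H2-DMa and Ciita (Cd74, H2-Aa, H2-Ab1 and H2-Eb1) were at 218 and 257 CPM (log2 ratio 0.23, 0.20 to 0.27). The sum of the class I members was 6241 and 5952 CPM (log2 ratio -0.07), and its direction turned with the scaling: with the TMM factor it was 0.03. With the gates weighted alike, the core class II genes turned to -0.24.

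With every cell at 2000 UMIs, at least 1 class I UMI was found in 7956 of 7958 WT cells (99.97%, 99.91% to 100%) and in 8376 of 8377 cKO cells (99.99%). The median cell held 13 class I UMIs in WT and 12 in cKO. The 5th and 95th percentiles were 6 and 23 UMIs in WT and 6 and 21 UMIs in cKO. B2m alone was detected in 99.7% of WT and 99.6% of cKO cells, H2-D1 in 95.7% and 95.3%, and H2-K1 in 73.2% and 75.4%. Tap1 was detected in 11.6% and 10.9% of cells, close to the 11.9% and 10.98% that its mean would give if each cell drew UMIs at random from the same level (a Poisson spread). Tap1 was therefore detected in few cells without its UMIs being gathered in them.

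For class II the spread was unequal. Cd74 was detected in 5.11% of WT cells (4.64% to 5.62%), whereas a Poisson spread of its mean would give 17.8%, and in 10.1% of cKO cells (9.45% to 10.7%), whereas a Poisson spread would give 32.1%. The variance of Cd74 over its mean, which is 1 for a Poisson spread, was 43.5 in WT and 32.7 in cKO. The same ratio lay between 1.05 and 1.93 for the class I members in WT and between 1.02 and 1.68 in cKO. Per gene, the 1% of cells with most UMIs held 77.1% of the Cd74 UMIs in WT and 67.6% in cKO, against 2.62% and 2.84% of the B2m UMIs. This share is also raised where a gene has few UMIs, but Tap1, with fewer UMIs than Cd74 in these cells, had 15.9% and 15.1%.

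For the chains the order against Cd74 depended on the measure. The variance over mean was 4.44 in WT and 7.46 in cKO for H2-Aa, 2.80 and 6.07 for H2-Ab1 and 2.51 and 5.46 for H2-Eb1, all below Cd74, but this ratio also grows with a gene's mean. By the share of UMIs in the top 1% of cells, H2-Eb1 (70% and 81.1%) was below Cd74 in WT and above it in cKO, and H2-Aa (54.5% and 57.6%) and H2-Ab1 (20.7% and 28.5%) were below it in both. H2-Eb1 had 200 and 265 UMIs at this depth, and so few raise the share by themselves. In cKO the class II gene H2-Ob reached 70.4% from 135 UMIs, with a variance over mean of 1.15. H2-Ab1 was detected in 17.8% of WT and 15.4% of cKO cells, H2-Aa in 3.82% and 4.38% and H2-Eb1 in 1.76% and 1.60%. In the GMP gate alone, H2-Ab1 was detected in 15.9% of WT and 13.4% of cKO cells. H2-DMa was near a Poisson spread over all cells: it was detected in 49.2% of WT cells (a Poisson spread gives 51.6%) and 25.3% of cKO cells (26.5%), and its variance over mean was 1.14 and 1.11. Its higher level in the few cells richest in class II is given below. Without thinning, the cKO shares were raised by depth, with Cd74 in 8.85% of WT and 25.7% of cKO cells and H2-DMa in 75.1% and 71.6%. H2-DMa was thus close to a Poisson spread, unlike Cd74, and Ciita was too rare to be placed.

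**Figure D2:**
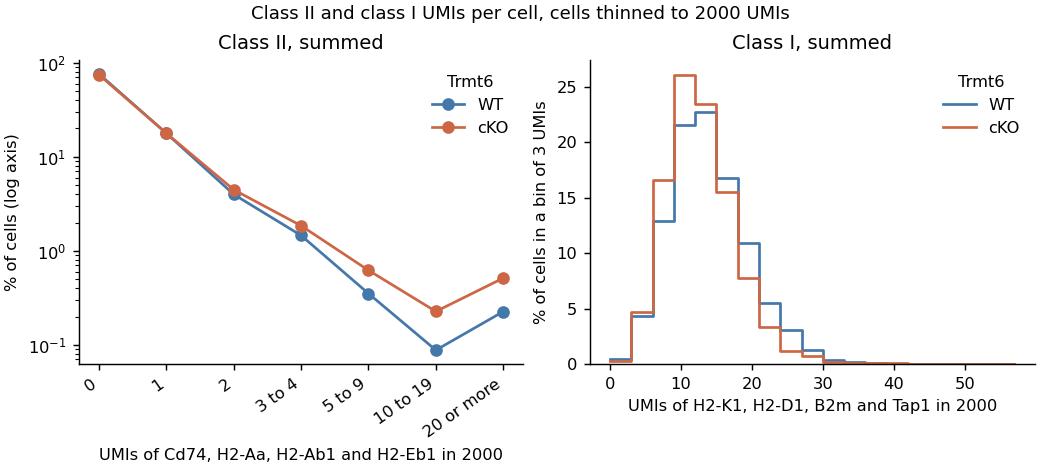
Percent of cells by the summed UMIs of the 4 core class II genes (left, log axis) and of the 4 class I genes (right, bins of 3 UMIs) in cells thinned to 2000 UMIs, for the WT and the cKO library. Class I forms 1 peak in each library with medians of 13 and 12 UMIs, while class II has 76.1% and 74.5% of cells at 0 and 18 and 43 cells in the last bin, which is open and holds all cells with 20 UMIs or more.

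**Figure D3:**
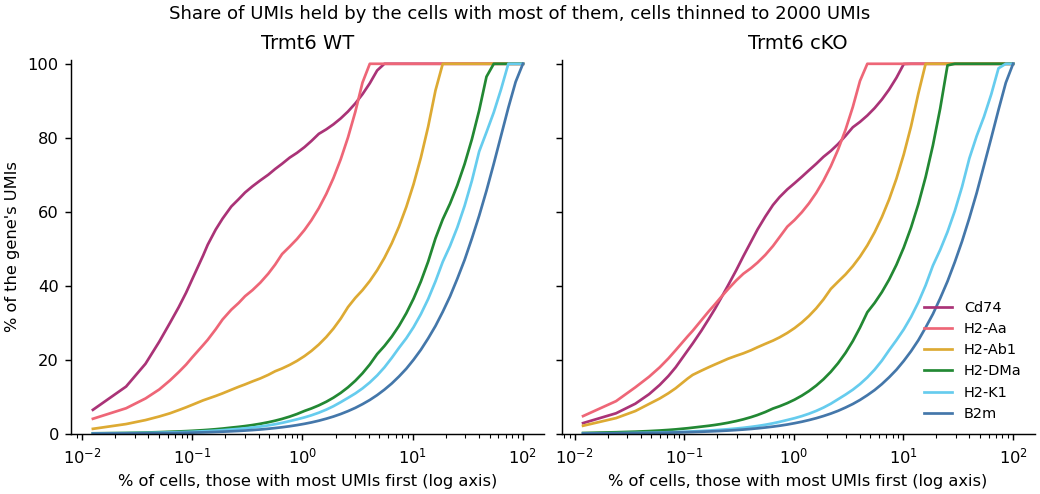
Percent of a gene's UMIs held by the cells with most of them, against the percent of cells (log axis), for 6 genes in each library at 2000 UMIs per cell. At 1% of cells the curve of Cd74 has reached 77.1% (WT) and 67.6% (cKO) of its UMIs and that of B2m 2.62% and 2.84%.

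The cells with most core class II UMIs were described as class II-high cells, defined by 10 or more UMIs of the 4 core genes in 2000, which is a range set on the members themselves and not a cell type. There were 25 class II-high cells of 7958 in WT (0.314%, 0.203% to 0.463%) and 62 of 8377 in cKO (0.74%, 0.568% to 0.948%). These cells held 36.4% of all core class II UMIs in WT and 48.9% in cKO. Near the limit, with 8 to 11 UMIs, were 6 cells in WT and 14 in cKO, and the highest cells held 144 and 176. At the other end, 6057 WT cells (76.1%) and 6245 cKO cells (74.5%) held no core class II UMI, and 1415 and 1489 cells held a single one. The class II-high cells were not unusually deep, with medians of 3690 UMIs in WT and 4423 UMIs in cKO against 4314 and 10235 in the other cells. Of the cells removed as likely doublets that had 2000 UMIs or more, 2 of 600 in WT and 7 of 669 in cKO were class II-high.

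In the 25 class II-high cells of WT, chosen by the 4 core genes, Cd74 was at 18790 CPM, H2-Ab1 at 4653 CPM, H2-Aa at 3717 CPM and H2-Eb1 at 1390 CPM, and 21 of the 25 held UMIs of all 4 (levels and counts of cells in these groups use all UMIs of a cell). Ciita was found in 4 of the 25 cells, at 37.1 CPM, against 0.628 CPM in WT cells with no core class II UMI. Beside the members, their leading genes by fold over the cells without core class II UMIs included Lgals3 (1428 against 8.91 CPM), Id2 (1047 against 11.7 CPM), Batf3 (297 against 0.239 CPM) and Cst3 (13358 against 662 CPM). Batf3 and Id2 encode transcription factors known from conventional dendritic cells. Of the dendritic cell markers fixed for gating, 6 of 8 were found, at a summed 380 CPM against 11.1 CPM, with Clec10a and Ccr7 at 0. Of the monocyte and macrophage markers, 3 of 8 were found, at 1316 against 343 CPM, with Csf1r and F13a1 at 0, and 10 of the 25 cells carried 3 or more. No cell had 3 or more of the dendritic cell markers. GMP markers, at 556 against 7245 CPM, were held 3 or more at a time by 7 cells, and lymphoid-primed markers, at 362 against 374 CPM, by 4. Plasmacytoid dendritic cell markers were at 74.2 against 177 CPM. By gate, 18 of the 25 were ungated, 5 were in the monocyte/macrophage gate and 1 each in the GMP and lymphoid-primed gates. These cells were left unnamed.

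In cKO, the 62 class II-high cells were of more than 1 kind. A plasma cell gate (at 2000 UMIs, 3 or more of 6 markers such as Jchain, Mzb1 and Sdc1, and more than of any other marker list) took 24 of them, while it took 0 of the 25 in WT (a count of 0 allows up to 12%). In these 24 cells Jchain, the joining chain of polymeric antibody, was at 231617 CPM and Mzb1 at 4494 CPM. Their Cd74 was at 13768 CPM, yet H2-Aa was at 47.6 CPM, H2-Ab1 at 381 CPM, H2-Eb1 at 133 CPM and H2-DMa at 28.6 CPM, and 1 of the 24 held all 4 core genes. H2-Aa was found in 3 of the 24 cells, H2-Ab1 in 16 and H2-Eb1 in 8. Over the cKO cells that were not class II-high, H2-Aa was at 18.1 CPM, H2-Ab1 at 80.9 CPM and H2-Eb1 at 6.53 CPM. In the 24 plasma-gated cells Cd74 made up 96.1% of the core class II UMIs, and all 8 dendritic cell markers were at 0.

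The other 38 cKO class II-high cells, like those of WT, held the chains beside Cd74. Cd74 was at 20458 CPM, H2-Ab1 at 6536 CPM, H2-Aa at 4528 CPM and H2-Eb1 at 2530 CPM, and 30 of the 38 held all 4. Cd74 made up 60.1% of the core UMIs, against 65.8% in the WT cells. Of the class II members that did not select the cells, H2-DMa was at 763 CPM, in 24 of the 38, against 983 CPM, in 24 of the 25 WT cells, and Ciita was at 10.2 CPM, in 2 cells, against 37.1 CPM, in 4. In cells without core class II UMIs, H2-DMa was at 140 CPM in cKO and 324 CPM in WT. Against cKO cells without core class II UMIs, all 8 dendritic cell markers were found, at a summed 323 against 6.63 CPM, all 8 plasmacytoid dendritic cell markers, at 1311 against 470 CPM, and 3 of 8 monocyte and macrophage markers, at 410 against 32.3 CPM, with Csf1r and F13a1 at 0. With all UMIs counted, 3 or more markers were held by 4 cells for the dendritic, 5 for the plasmacytoid and 2 for the monocyte and macrophage list. B cell markers (5 of 8 found, 394 against 78.0 CPM) and lymphoid-primed markers (6 of 8, 440 against 120 CPM) were higher too, with 3 or more in 4 cells each. By gate, 28 of the 38 were ungated and 3 were in the plasmacytoid dendritic cell gate. The lymphoid-primed and monocyte/macrophage gates held 2 each, and the B, T/NK and dendritic cell gates 1 each. These 38 cells also held plasma cell RNA: Jchain was their leading gene by fold, at 22394 against 9.74 CPM, from 7 of the 38 cells, the plasma markers summed to 23065 against 175 CPM, and 3 cells held 3 or more of them with all UMIs counted. Without every cell that held a Jchain UMI, a limit added after the data were seen, class II-high cells were 24 in WT and 31 in cKO, and in these 31 Cd74 was at 19968 CPM, H2-Ab1 at 6427 CPM, H2-Aa at 4608 CPM and H2-Eb1 at 2549 CPM.

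Class I in the class II-high cells did not follow one rule. In the 25 WT cells H2-K1 was at 371 CPM, against 635 CPM in the cells without core class II UMIs, whereas H2-D1 was at 2002 against 1655 CPM. B2m was at 3078 against 3733 CPM, and Tap1 at 130 against 62.1 CPM. In the 38 cKO cells outside the plasma gate, H2-K1 was at 953 against 709 CPM, H2-D1 at 3068 against 1694 CPM, B2m at 5066 against 3411 CPM and Tap1 at 143 against 53.3 CPM. The 24 plasma-gated cells had the highest B2m of these groups, 10492 CPM, with H2-K1 at 990 CPM. H2-K1 per H2-D1 UMI was 0.185 in the WT class II-high cells, 0.311 in the 38 cKO cells, 0.517 in the 24 plasma-gated cells, 0.386 in the other WT cells and 0.42 in the other cKO cells.

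Outside the class II-high cells, low levels of Cd74 remained and were higher in cKO. Over 7933 WT and 8315 cKO cells, Cd74 was at 26.6 CPM (25.03 to 28.2) and 58.0 CPM (56.4 to 59.6), a log2 ratio of 1.13 (1.03 to 1.22) against 0.65 over all cells. Within gates and without class II-high cells it was smaller, at 0.72 in ungated cells, 1.002 in the HSC, 0.72 in the LMPP and 0.07 in the GMP gate (stem cell, lymphoid-primed and GMP gates, defined below), and the GMP gate, low in Cd74, held far more WT than cKO cells. H2-Aa was at 15.9 and 18.1 CPM, H2-Ab1 at 92.8 and 80.9 CPM and H2-Eb1 at 6.64 and 6.53 CPM, with H2-Eb1 then turning to a log2 ratio of -0.02. This exclusion was added after the data were seen. At equal depth Cd74 was detected in 4.82% of these WT cells and 9.42% of these cKO cells. Free RNA from lysed cells can give such UMIs, and its level was not measured. In the GMP-gated cells, which are not known for class II, Cd74 was detected in 3.00% of WT and 3.35% of cKO cells (median depths 5665 and 13544 UMIs). In the neutrophil gate of WT it was detected in 6.73% of cells (2.75% to 13.4%, median depth 5027 UMIs). These gates differ in depth, and neither was a measured background. The ratios of the genes differed between groups of cells. Cd74 over H2-Ab1 was 4.04 in the WT class II-high cells and 0.181 in the other GMP-gated WT cells, and 3.13 in the 38 cKO cells and 0.209 in the other GMP-gated cKO cells. The part of free RNA in these values was not tested.

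Marker gates, built from lists that hold no member, gave the levels by kind of cell. At 2000 UMIs, a cell entered a gate with 3 or more of its markers and more than of any other list, and 4500 WT and 7710 cKO cells entered none. Among the gates with 20 or more cells, the summed core class II genes were highest in the plasma gate of cKO, at 13513 CPM (12847 to 14206, 26 cells), and in the monocyte/macrophage gate of WT, at 3901 CPM (3668 to 4146, 37 cells). In the latter, 5 class II-high cells accounted for all 5 cells in which Cd74 was detected at equal depth. There followed the B gate of cKO (375 CPM, 324 to 432), the lymphoid-primed (LMPP) gate of cKO (335 CPM, 293 to 381), the stem cell (HSC) gate of WT (284 CPM, 227 to 350) and of cKO (278 CPM, 250 to 308) and the LMPP gate of WT (228 CPM, 202 to 257). The intervals of these neighbours overlapped one by one. Class II-high cells were part of some of them: outside 2 such cells the LMPP gate of cKO held 179 of its 228 core UMIs. Outside 1 such cell each, the B gate of cKO held 168 of 191 and the LMPP gate of WT 251 of 272. The HSC gates held 0 such cells. Below them were the megakaryocyte gate of WT (111 CPM, 82.3 to 147), the GMP gates of WT (108 CPM, 104 to 113) and cKO (97.4 CPM, 87.1 to 109) and the neutrophil gate of WT (76.8 CPM, 56.4 to 102.1). The mast cell and basophil gate of cKO was lowest, with 2 UMIs in 20 cells (19.1 CPM, 2.31 to 68.9).

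Class I spanned a much narrower range over the same gates. Its sum was highest in the plasma gate of cKO, at 12758 CPM, and then lay between 7803 CPM (HSC gate of WT) and 3720 CPM (neutrophil gate of WT). Within both libraries the order HSC, LMPP, GMP held for class I, with 7803, 6670 and 5661 CPM in WT and 7098, 6159 and 5312 CPM in cKO, and the intervals of these 3 gates did not overlap within a library. In each of the 3 gates B2m was lower in cKO, with log2 ratios of -0.17 (HSC), -0.24 (LMPP) and -0.24 (GMP), whereas H2-K1 had log2 ratios of 0.04, 0.05 and 0.18. H2-K1 was lowest in the monocyte/macrophage gate of WT, at 240 CPM (185 to 307), where H2-DMa had its highest level, 653 CPM (560 to 758).

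**Figure D4:**
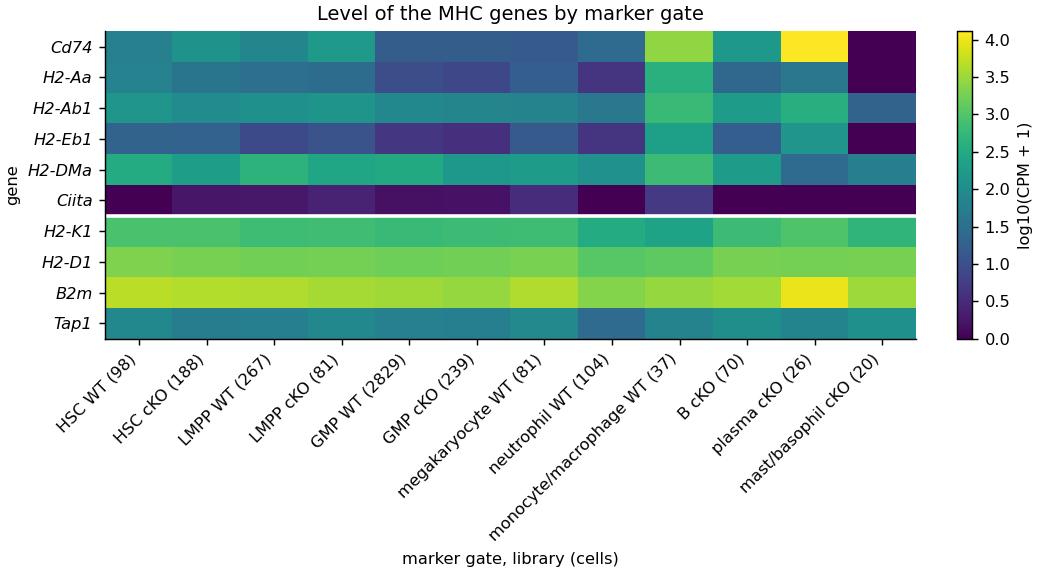
Level of each of the 10 genes, as log10(CPM + 1), in the marker gates with 20 or more cells, with the library and number of cells on the horizontal axis. Cd74 runs from 0 CPM (mast/basophil cKO) to 12943 CPM (plasma cKO), while B2m stays between 2253 and 9940 CPM.

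In the HSC gate Cd74 was at 62.0 CPM in 98 WT cells and 127 CPM in 188 cKO cells, a log2 ratio of 1.002 (0.35 to 1.80), from 19 and 164 UMIs. At equal depth it was detected in 6.12% (2.28% to 12.8%) and 19.1% (13.8% to 25.5%) of these cells. In the LMPP gate Cd74 was at 76.2 and 163 CPM, a log2 ratio of 1.096 (0.68 to 1.51), which was 0.72 (0.24 to 1.19) without class II-high cells. In the GMP gate its 15.3 and 15.2 CPM gave a log2 ratio of 0.00 (-0.47 to 0.42). In the ungated cells, the largest group, it was at 99.8 and 91.9 CPM, a log2 ratio of -0.12 (-0.19 to -0.05), which turned to 0.72 (0.61 to 0.84) without class II-high cells. In level, Cd74 was thus higher in cKO in the HSC and LMPP gates beyond counting error. Its direction in ungated cells rested on the 18 WT and 28 cKO class II-high cells among them, and in the GMP gate no difference was detectable. In the HSC gate the chains had log2 ratios of -0.77 (H2-Aa, -1.53 to 0.07), -0.56 (H2-Ab1, -1.06 to -0.0050) and -0.16 (H2-Eb1, -1.40 to 1.51), and the summed core genes one of -0.04 (-0.37 to 0.33).

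H2-DMa was lower in cKO in every gate that both libraries filled. It was at 339 and 198 CPM in the HSC gate (log2 ratio -0.78, -1.11 to -0.43), at 453 and 259 CPM in the LMPP gate (-0.81, -1.06 to -0.56) and at 315 and 153 CPM in the GMP gate (-1.04, -1.17 to -0.91). In ungated cells it was at 352 and 145 CPM (-1.28, -1.32 to -1.23). With the gates weighted alike in both libraries, its log2 ratio was -1.16, against -1.18 over all cells. The ungated cells, 4500 in WT and 7710 in cKO, entered this weighting as 1 group, so differences in mix among them were not equalised.

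The remaining genes of the pathway were read from lists of 54 genes, of which 53 were in the matrices and 45 reached 5 CPM. Past a log2 ratio of 1 were 4 of the 45, 1 higher (Ctsl) and 3 lower (H2-Ob, Lgmn and Irf8), where 2.91% of all 9127 genes were above 1 and 5.17% below -1. With median-of-ratios factors, which shift every log2 ratio by 0.10, Lgmn was no longer past this limit and the count was 3. Among other class II chains and loading genes, 1 of 8 was higher in cKO, where 43.3% of all genes were, and the median log2 ratio was -0.85 against -0.06 over all genes. H2-Ob, the beta chain of H2-DO, which restrains H2-DM, was at 43.1 and 6.76 CPM (log2 ratio -2.67, -2.81 to -2.54). H2-DMb1, the partner of H2-DMa, was at 63.4 and 35.4 CPM (-0.84, -0.92 to -0.77), and H2-Oa, named after its value was seen as the partner of H2-Ob, at 22.7 and 12.1 CPM (-0.90). At equal depth H2-Ob was detected in 9.34% of WT and 1.48% of cKO cells, and H2-DMb1 in 11.8% and 6.83%.

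Of the endosomal enzymes, Lgmn, an endopeptidase that cuts the invariant chain, was at 7.47 and 3.57 CPM (log2 ratio -1.07, -1.30 to -0.84). Ctsl, a cathepsin, was at 15.1 and 36.5 CPM (1.27, 1.15 to 1.40). Irf8, a transcription factor of dendritic and monocytic cells, was at 188 and 12.9 CPM (-3.86, -3.95 to -3.77), and Spi1, which encodes PU.1, was at 200 and 120 CPM (-0.74). Of the 16 regulators, 3 were higher in cKO, against the same 43.3% of all genes, with a median log2 ratio of -0.25. Irf8 and Spi1 are also used by GMPs, whose gate held 2829 WT and 239 cKO cells, and the part of this shift in the values was not tested.

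Of 9 other class I chains and 12 peptide supply genes, 0 were past a log2 ratio of 1, against 8.09% of all genes, and the medians were -0.06 and -0.12. Their lowest log2 ratio was that of Cd1d1, which encodes a lipid-presenting molecule and is named here after its value was seen (41.7 and 21.5 CPM, -0.95). H2-T23, which encodes the non-classical Qa-1, was at 240 and 160 CPM (log2 ratio -0.59, -0.63 to -0.55), and H2-Q7 at 120 and 148 CPM (0.30, 0.26 to 0.35). Psmb8, a catalytic subunit of the immunoproteasome that cuts peptides for class I, was at 751 and 513 CPM (-0.55, -0.57 to -0.53). Calr, the chaperone calreticulin of the peptide loading complex, was at 519 and 288 CPM (-0.85, -0.88 to -0.83).

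**Figure D5:**
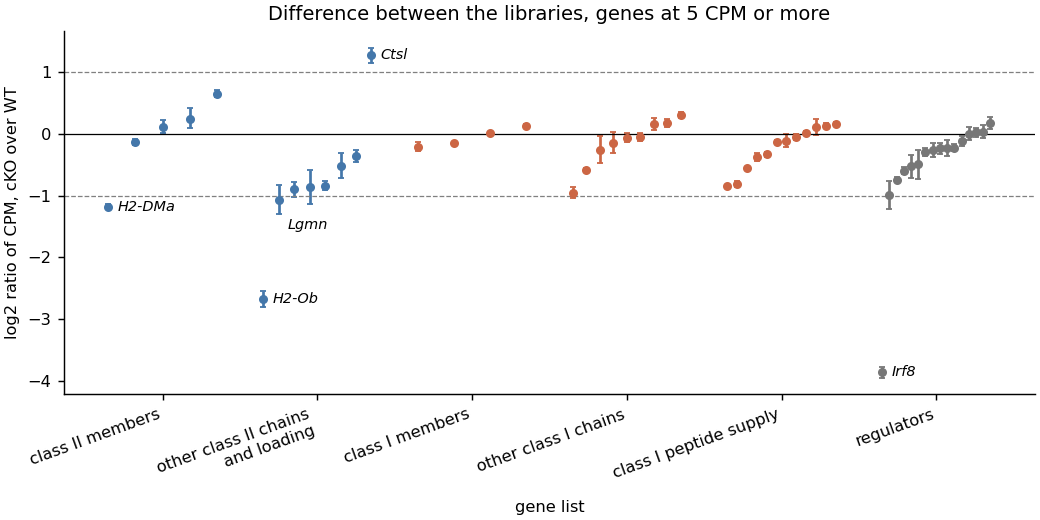
log2 ratio of CPM, cKO over WT, for members and pathway genes that reach 5 CPM in either library, grouped by list, with 95% intervals of counting error; dashed lines mark log2 ratios of -1 and 1. The class I lists stay between the dashed lines, while H2-DMa, H2-Ob, Lgmn and Irf8 lie below -1 and Ctsl above 1.

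Genes with the pattern most like the members were sought over 12 points (gates with 20 or more cells, by library), among 7622 genes that reached 20 CPM in a gate, by Pearson's r of log2(CPM + 10). For the summed core class II genes these were Rbm47 (r = 0.94), Lgmn (0.92), Epn1 (0.91), Cd164 (0.91) and Sub1 (0.90). For the class I sum they were Birc2 (r = 0.95), Gm4890 (0.94), Sepw1 (0.93), Ift20 (0.92) and Tbc1d10a (0.91). The points share libraries and depth, and the plasma gate of cKO was the highest point in both sums, so these values are a description only. Without the plasma gate (11 points, added after the data were seen) the r of these genes lay between 0.81 and 0.90 for class II and between 0.82 and 0.92 for class I. Except for Cd164, each of the 10 genes had its highest level in the plasma gate of cKO, from few UMIs in several: 3 for Rbm47, 4 for Tbc1d10a, 6 for Gm4890, 9 for Epn1, 10 for Birc2 and 12 for Lgmn.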

How the data were processed

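Values are UMI counts as deposited, without normalization, for each gene in each barcode. Per the labels and the study's methods, the authors quantified them with Cell Ranger 6.0.0 on GRCm38 (mm10). The labels name the version 2 reagents of the 3′ kit and the study's methods version 3, and which was used was not settled here. Sequencing reads were not analysed here.

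The study's limits were applied: more than 200 genes, fewer than 4000 (WT) or 4500 (cKO), mitochondrial UMIs under 10% (WT) or 5% (cKO) and haemoglobin UMIs under 5%. Doublets were scored by their share of simulated doublets among 50 neighbours in 20 principal components of 1500 variable genes (scikit-learn 1.9.0), and 0.8% per 1000 barcodes were marked, which removed 613 WT and 669 cKO cells within the limits. Cells were thinned without replacement to 2000 UMIs for shares and gates, which left out 192 WT and 105 cKO cells.

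Levels are CPM of UMIs summed over cells. log2 ratios carry 0.5 prior counts, and exact intervals were computed in scipy 1.17.1 (for shares by Clopper-Pearson, for CPM from the Poisson distribution, for ratios from the binomial given the sum of both counts). The limit given beside a count of 0 is 3 over the number of cells and not an exact interval. The script was tested on simulated data. With 1 library per group no test was possible and no p-value is given. Gates used 13 lists of 8 markers, of which Igkc and Iglv1 were not found by symbol, and H2-T10 of the class I list was not found either. Named genes were all members, pathway genes past a log2 ratio of 1 at 5 CPM or more, up to 2 per list with the highest level, and the 5 genes most alike. Members, lists, the class II-high limit and gates were chosen with earlier results of these data known. Alternatives were other cell filters, scalings (including TMM, edgeR 4.0.16), thinning depths, gate limits and minimum levels. Coordinates are from GENCODE M21. Figures were made with matplotlib 3.10.9.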

Additional observations from a re-analysis of the deposited data

How the results depend on the processing

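No paired analysis was possible because the groups share 1 replicate number only, with 1 library each. The log2 ratio of the class II members (-0.45) kept its direction under all 10 alternatives and moved to -0.28 in thinned cells, -0.31 with each cell scaled first, -0.35 with TMM, median-of-ratios factors or a total without mitochondrial and ribosomal protein genes, -0.53 without antigen-presenting gates, -0.61 without class II-high cells (added after the data were seen) and -0.74 at the same mix of gates. That of the class I members (-0.07) moved to -0.081 with doublets kept, -0.10 with each cell scaled first, -0.12 in thinned cells and -0.16 at the same mix of gates, and turned to 0.028 with TMM, 0.031 with median-of-ratios factors and 0.028 with the reduced total. At the same mix of gates the core class II genes turned to -0.24, Cd74 to -0.017, H2-Aa to -0.49, H2-Eb1 to -0.35 and H2-D1 to -0.015. H2-Eb1 was -0.025 without class II-high cells. H2-D1 was also at or below 0 with doublets kept (-0.00029), in thinned cells (-0.033) and with each cell scaled first (-0.00067). The causes were not tested. Pathway genes past a log2 ratio of 1 were 4, and 3 with median-of-ratios factors, 3 at 20 CPM and 5 at 1 CPM.

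The class II-high share was 0.666% (WT) and 1.36% (cKO) at 5 UMIs, and 0.513% in cKO at 20 UMIs, where WT had 0.226%. Cells with a class I UMI were 99.4% (WT) and 99.5% (cKO) at 1000 UMIs, and 100% in WT without thinning. With 2 or more markers per gate, core class II levels were 237 CPM (HSC, cKO), 134 CPM (GMP, WT) and 122 CPM (GMP, cKO), and class I levels were 6523 CPM (HSC, cKO), 5931 CPM (GMP, WT) and 5609 CPM (GMP, cKO). With 4 or more, core class II levels were 317 CPM (HSC, cKO), 85.3 CPM (GMP, WT) and 64.5 CPM (GMP, cKO), and class I levels were 8826 CPM (HSC, WT), 7545 CPM (HSC, cKO), 6838 CPM (LMPP, WT), 7245 CPM (LMPP, cKO) and 5187 CPM (GMP, WT). Depth limits Ciita and the gates of few cells, and 1 library per group limits every comparison.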
